A study of Mus musculus with 30 samples.

Results

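Heart muscle does not stop at the heart in mice: cardiomyocytes run out along the pulmonary veins into the lung, where they form a sleeve of atrial-type muscle around the vein wall. RNA of whole mouse lung therefore holds transcripts of atrial muscle. The 10 genes described here are members of that program: Myh6, Myl4, Myl7, Nppa, Tnnt2, Tnni3, Sln, Actc1, Ryr2 and Mybpc3. They were chosen by symbol, with earlier results of these data known. Each was read from the probe set annotated to that gene alone with the highest mean over all arrays. All 10 were measured, each by 1 probe set, among 22180 genes tested. They lie on chromosomes 1 (Tnnt2), 2 (Actc1 and Mybpc3), 4 (Nppa), 7 (Tnni3), 9 (Sln), 11 (Myl4 and Myl7), 13 (Ryr2) and 14 (Myh6) in RefSeq.

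Contraction in these cells depends on thick filaments built from a heavy chain (Myh6) with its light chains (Myl4 and Myl7 in atrial muscle) and a binding protein (Mybpc3), and on thin filaments of cardiac actin (Actc1) under the control of the troponin complex (Tnnt2 and Tnni3). Calcium leaves the store through the ryanodine receptor Ryr2 and is pumped back by an ATPase that sarcolipin (Sln) restrains in atrial muscle. Nppa encodes the precursor of atrial natriuretic peptide, the hormone that atrial cells secrete when stretched.

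The study profiled lung RNA of C57BL/6 mice on Affymetrix Mouse Gene 2.0 ST arrays, 30 arrays in 10 groups of 3, to compare mice lacking Zmpste24, the protease that completes the processing of prelamin A, with wild-type (WT) mice, young and old, with or without bleomycin injury. Lungs were perfused through the heart with saline before they were taken. The paper states that right lungs were fixed and left lungs frozen. Which lung or lobe gave the RNA is not stated. All mice received saline or bleomycin and were examined at day 21, and every value below is the deposited log2 value of a probe set, so that a difference of 1 is a doubling. The labels place the arrays in 2 sets, which are array runs made at different times. Set 1 held knockout mice (Zmpste24 -/-, KO) of 16 weeks, called old KO, given saline or bleomycin, KO mice of 7 weeks given saline, and WT mice given saline or bleomycin. Set 2 held WT mice of 7 weeks given saline, WT mice of 82 weeks given saline or bleomycin, and KO mice of 7 weeks given saline or bleomycin. The WT mice of set 1 are titled young but labelled 16 weeks old and described as old, so they are called set 1 WT here, with no age attached. Old in the WT thus means 82 weeks and old in the KO 16 weeks. The knockout is carried in every tissue, heart included. The methods describe the 3 samples of a group as biologically separate.

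Some arrays stood apart or went against their labels. The Zmpste24 probe set read 7.93 to 8.68 in the 15 WT arrays. Of the arrays labelled KO, 12 read 5.29 to 6.56, but 3 of the 6 labelled young KO saline read 7.55, 7.60 and 7.93; those 3 also carried the brown fat gene Ucp1 at 8.72 to 9.13. Of the 6, 5, all but replicate 1 of set 1, held transcripts of skeletal muscle and squamous epithelium: Acta1, skeletal actin, read 10.53 to 10.78 in them and 5.78 to 6.60 in all other arrays, and Krt4, a keratin of squamous epithelium, read 11.40 to 11.82 against 4.65 to 6.22. Set 1 replicates 2 and 3 of young KO saline correlated best with set 2 replicates 3 and 1 (both r 0.991 across all genes). Their best r within their own group was 0.988. No source used here says whether these arrays of the 2 sets came from different mice. Replicate 3 of old KO saline correlated less with its own group (best r 0.947 across all genes) than any other array. Each of the 3 old KO saline arrays correlated best with a different set 1 WT saline array (r 0.985, 0.989 and 0.961). In turn, each of the 3 set 1 WT saline arrays correlated best with a different young WT saline array of set 2 (r 0.992, 0.987 and 0.993, against a best of 0.985 to 0.987 within their own group), and the cardiac genes of arrays matched this way differed by a median of 0.11 and at most 0.51. No source used here says whether both groups hold RNA of the same mice. The fits counted all these arrays as separate samples, which the p values below assume. Agreement between the 2 groups is not read as independent support. A list of 8 lung markers, among them Sftpc and Sftpb of alveolar cells and Scgb1a1 of club cells, averaged 11 to 12.02 per array. It was lowest in replicate 3 of old KO saline (11, against 11.77 and 11.87 in its group). Next came replicate 2 of young WT saline (11.28, against 11.72 and 11.84) and replicate 1 of set 1 WT saline (11.31, against 11.82 and 11.83). Not every marker was low in these 3 arrays. Lamp3 read 8.96, 9.41 and 9.38 in them, against 11.01 to 11.39 in the rest of their groups. Scgb1a1, at 13.66, 13.70 and 13.75, was the highest of each group.

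Promoters were compared for letters that the members share close to the start of transcription. RefSeq promoters of build GRCm38.p6, 300 bases each, mostly ahead of the start, were at hand for 9 of the 10 genes, 10 promoters in all. They were searched on both strands for the letters bound by the factors of heart muscle, and on the given strand for a TATA box. Shown are 3 of them, Myl7 and Actc1 because both hold a CArG box, the site of serum response factor, and Nppa because it holds the most motifs. Capitals mark the motif matches. The Myl7 promoter is chr11:5898733-5899032 and that of Actc1 is chr2:114052826-114053125, both on the minus strand. The Nppa promoter, chr4:148000472-148000771 on the plus strand, opens with the letters of a T-box site (on the other strand) and of an NKX2-5 site close to each other, and like that of Actc1 holds TATAAA.
Myl7: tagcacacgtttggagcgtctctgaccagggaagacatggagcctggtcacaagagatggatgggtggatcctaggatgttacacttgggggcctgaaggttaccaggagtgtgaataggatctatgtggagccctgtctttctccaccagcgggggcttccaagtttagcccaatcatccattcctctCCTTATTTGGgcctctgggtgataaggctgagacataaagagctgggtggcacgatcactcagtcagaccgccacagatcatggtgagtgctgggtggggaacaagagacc
Actc1: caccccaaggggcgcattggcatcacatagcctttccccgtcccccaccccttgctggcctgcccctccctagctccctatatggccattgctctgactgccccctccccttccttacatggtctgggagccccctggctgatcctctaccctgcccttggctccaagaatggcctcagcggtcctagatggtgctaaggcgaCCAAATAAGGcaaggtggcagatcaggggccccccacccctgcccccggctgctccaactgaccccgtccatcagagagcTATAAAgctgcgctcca
Nppa: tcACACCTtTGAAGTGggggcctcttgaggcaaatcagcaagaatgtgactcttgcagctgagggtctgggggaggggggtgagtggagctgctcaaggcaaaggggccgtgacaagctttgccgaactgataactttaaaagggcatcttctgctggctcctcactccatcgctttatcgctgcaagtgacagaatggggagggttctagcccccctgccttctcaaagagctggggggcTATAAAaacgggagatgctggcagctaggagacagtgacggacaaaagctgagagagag

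No motif stood in more than 3 of the 9 genes, and Myl4 and Ryr2 had none. The CArG box stood in 2 of them and in 1.63% of all 32851 promoters. The T-box letters AGGTGT stood in those of Nppa and Tnni3 (13.7% of all promoters), the NKX2-5 letters TNAAGTG in that of Nppa (11.5%), the GATA letters AGATAA in 1 of the 2 Tnnt2 promoters (11.2%) and a MEF2 site in that of Mybpc3 (3.69%). TATAAA stood in those of Actc1, Myh6 and Nppa (8.32%). A match is a string of letters and says nothing of whether a factor binds there.

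Over the 30 arrays the cardiac genes ranged widely. Nppa ran from 6.23 to 10.05, Sln from 4.82 to 8.56 and Actc1 from 6.76 to 10.09. Myh6 ran from 6.64 to 9.38, Myl7 from 6.09 to 8.35, Tnnt2 from 8.65 to 10.70, Myl4 from 6.68 to 8.30, Tnni3 from 7.21 to 8.80 and Ryr2 from 6.36 to 7.68. Mybpc3 was the flattest, between 5.54 and 6.36. Its mean of 5.94 lay below the array medians of 5.95 to 6.19, and whether so low a signal could show a change was not tested. The group with the lowest mean was old WT saline for 5 genes (Myh6, Myl4, Myl7, Tnnt2, Sln) and young KO bleomycin for the other 5.

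**Figure D1:**
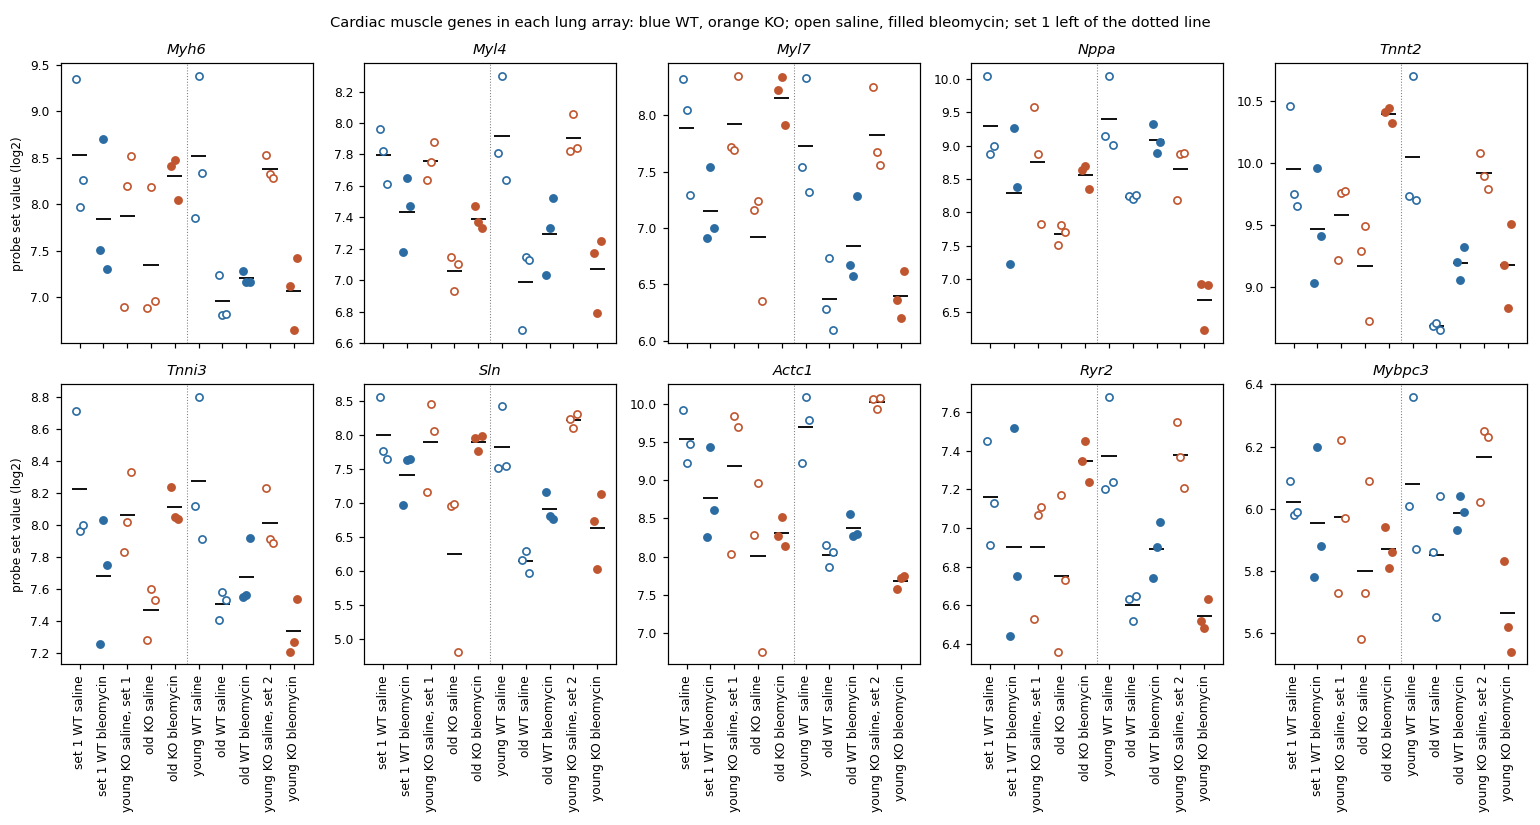
Log2 probe set value (y axis, own scale per panel) of each cardiac muscle gene in the 30 arrays, by group (x axis); points are arrays, black lines group means, blue WT, orange KO, open saline, filled bleomycin, with set 1 left of the dotted line. The 3 old WT saline arrays lie below all 3 young WT saline arrays for 9 of the 10 genes, and old KO bleomycin arrays lie close together, between 10.32 and 10.44 for Tnnt2.

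RNA of old WT lungs held less of most of these cardiac muscle transcripts than that of young ones. In saline-treated WT mice of set 2, 8 of the 10 genes fell between 7 and 82 weeks, where 3.15% of all genes were called lower (limma over all groups, Benjamini-Hochberg adjusted p under 0.05 over 22180 genes). The median difference of the 10 was -1.26 and that of all genes 0.01. The old arrays lay below every young array for 9 genes, a pattern that 13.6% of all genes showed. Since the 10 genes were chosen with earlier results known, these and later shares of all genes are descriptive. In bulk RNA, fewer cardiomyocytes in the sampled lung and less RNA per cardiomyocyte cannot be told apart. Which lung or lobe gave the RNA is not stated, and how much vein or adjoining tissue each sample held was not tested.

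Among the thick filament genes was Myh6, a cardiac heavy chain. It read 7.85, 9.38 and 8.33 in young WT and 7.24, 6.81 and 6.82 in old WT. The highest old array was below the lowest young array. The difference was -1.56 (SE 0.41, adjusted p = 0.0172 by limma), a fall to 0.34 of the young level. Myl7, the atrial regulatory light chain, read 7.54, 8.33 and 7.32 in young and 6.28, 6.73 and 6.09 in old arrays. It fell by 1.37 (SE 0.29, adjusted p = 0.00285 by limma). Myl4, the atrial essential light chain, read 7.81, 8.30 and 7.64 against 6.68, 7.15 and 7.13, with no overlap, and fell by 0.94 (SE 0.17, adjusted p = 0.000658 by limma). Mybpc3 overlapped between the groups (5.87 to 6.36 young, 5.65 to 6.04 old) and its difference of -0.23 did not pass the test.

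The thin filament moved with them. Tnnt2, cardiac troponin T, read 9.73, 10.70 and 9.70 in young and 8.69, 8.71 and 8.65 in old lungs. The old arrays agreed within 0.06, while a single young array stood well above its group. The fall was 1.36 (SE 0.25, adjusted p = 0.000821 by limma), to 0.39 of the young level. Actc1 read 9.22, 10.09 and 9.79 against 8.15, 7.87 and 8.06 and fell by 1.67 (SE 0.40, adjusted p = 0.00774 by limma). Tnni3, cardiac troponin I, ran from 7.91 to 8.80 in young and from 7.41 to 7.58 in old arrays and fell by 0.77 (SE 0.21, adjusted p = 0.0224 by limma).

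Of the calcium genes, Sln read 7.52, 8.43 and 7.54 in young and 6.17, 6.29 and 5.97 in old arrays. All old arrays were more than a unit lower, and the fall of 1.69 (SE 0.40, adjusted p = 0.00728 by limma) left 0.31 of the young level. Ryr2 ran from 7.20 to 7.68 in young and from 6.52 to 6.65 in old lungs and fell by 0.78 (SE 0.22, adjusted p = 0.0234 by limma). The hormone gene Nppa read 9.15, 10.05 and 9.01 in young WT and 8.25, 8.20 and 8.26 in old WT; the groups did not overlap, but the difference of -1.16 (SE 0.40) had an adjusted p of 0.0714 by limma.

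Replicate 2 of young WT saline, also low in the mean of the lung markers, was the highest array of its group for every one of the 10 genes. Why this array stood high was not tested. Most of the calls needed it: without it only 3 genes were called, Myl4, Myl7 and Tnnt2. Leaving out replicate 2 or replicate 3 of old WT saline gave 5 calls. With the set 1 WT saline arrays as the young group, 7 genes were called, an alternative chosen after seeing the data that rests on arrays much like the ones it replaced.

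Other genes of heart muscle fell in the same comparison, while ventricular and fast skeletal markers did not pass the test. Of 22 further sarcomere genes 8 fell and none rose, among them Myzap, an intercalated disc protein (-1, adjusted p = 0.000459 by limma), and Tmod1, which caps thin filaments (-0.93, adjusted p = 0.0059 by limma). Of 11 calcium handling genes 2 fell: Pln, phospholamban, the inhibitor of the calcium pump (-1.23, adjusted p = 0.000826 by limma), and Casq2, which holds calcium in the store (-0.79, adjusted p = 0.00903 by limma). The pump itself, Atp2a2, differed by -0.37 with an adjusted p of 0.203. Of 16 transcription factors 3 fell, including Tbx3 (-1.05, adjusted p = 4.19e-05 by limma) and Tbx5 (-0.56, adjusted p = 0.0314 by limma), factors that the lung itself also expresses. Of 15 energy genes 3 fell, 1 of 14 channel and junction genes fell and 1, Gja1, rose (0.72, adjusted p = 0.0452 by limma), and of 7 atrial hormone and secreted factor genes none fell and 1 rose (Adm, adrenomedullin, 1.06, adjusted p = 0.0164 by limma).

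None of the 5 ventricular genes was called (limma; 1 of 5 had an unadjusted p under 0.05), and their range over all arrays was narrow: Myl2, the ventricular light chain, ran from 4.93 to 6.03 and differed by -0.04 between old and young WT, Myl3 differed by 0.01, and Myh7 by -0.52 (adjusted p = 0.0521 by limma). Bmp10, an atrial growth factor, stayed between 4.80 and 5.96 in the 30 arrays. The means of Myl2 (5.34) and Bmp10 (5.35) lay below the array medians of 5.95 to 6.19. That of Myl3 (5.98) lay among these medians and that of Myh7 (6.57) above. Whether the dim genes could show a fall was not tested. Of 12 fast skeletal muscle genes none was called with age in WT (limma, 0 of 12 with an unadjusted p under 0.05). Their mean per array was 5.59 to 5.68 in young and 5.58 to 5.82 in old WT, also below the array medians. Of 8 smooth muscle genes 1 fell, Cnn1, calponin (-1.10, adjusted p = 0.0151 by limma), and the actin Acta2 and the heavy chain Myh11 differed by 0.21 and -0.30, neither past the test. The list means of squamous epithelium were 4.76 to 5.01 in young and 4.86 to 4.92 in old WT.

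**Figure D2:**
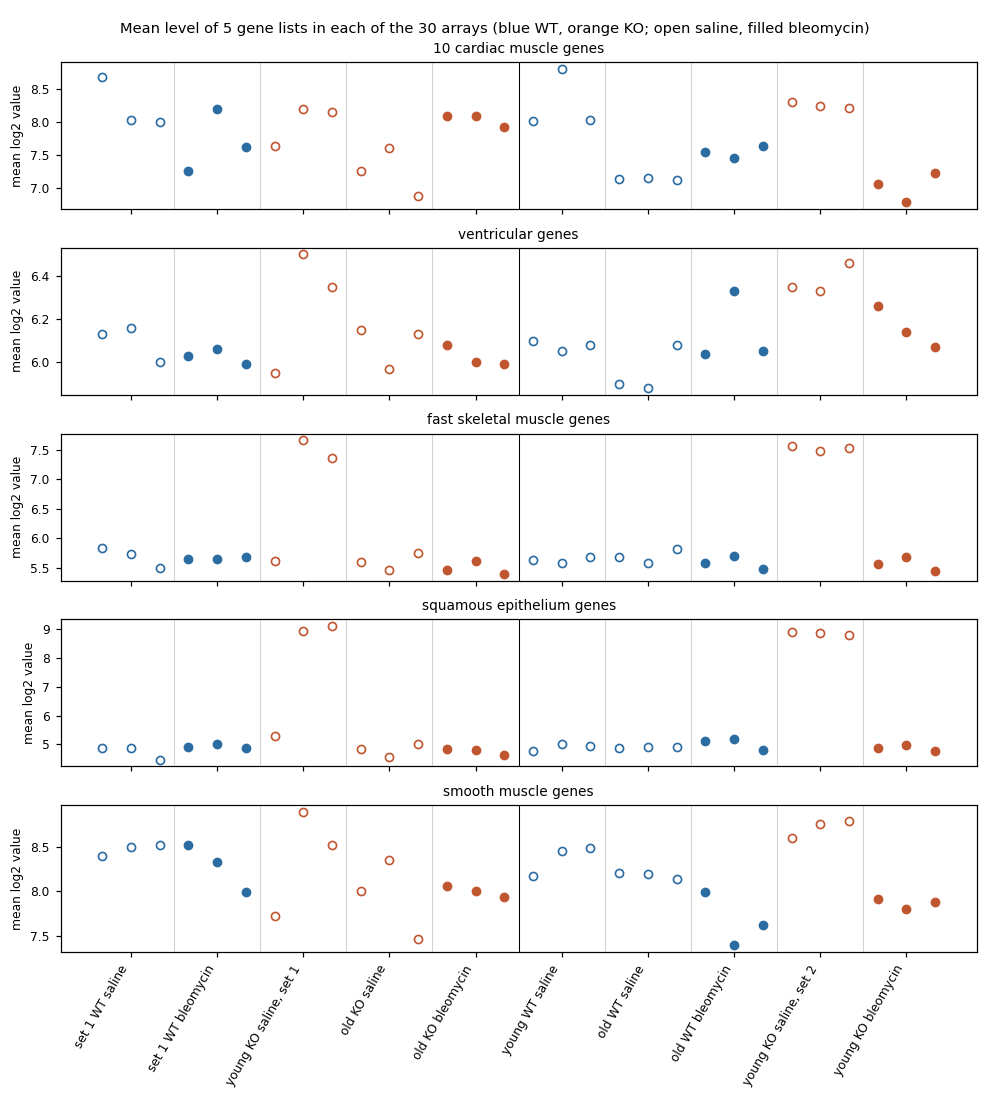
Mean log2 value (y axis, own scale per panel) of 5 gene lists in each of the 30 arrays (x axis, by group); blue WT, orange KO, open saline, filled bleomycin, with set 1 left of the black line. Skeletal muscle and squamous genes are high in 5 of the 6 young KO saline arrays and flat elsewhere, whereas the cardiac genes vary across all groups.

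In the KO the age comparison, 16 weeks against 7 weeks under saline in set 1, called 2 of the 10 genes lower, where 1.23% of all genes were called lower. Myl4 read 7.64, 7.75 and 7.88 in young and 7.15, 6.93 and 7.10 in old KO arrays. It fell by 0.70 (SE 0.17, adjusted p = 0.0301 by limma). Sln read 7.16, 8.45 and 8.06 against 6.96, 6.98 and 4.82 and fell by 1.64 (SE 0.40, adjusted p = 0.03 by limma). The old arrays lay below all young ones for 5 genes (5.68% of all genes), Nppa among them, at 9.58, 8.88 and 7.83 in young and 7.51, 7.81 and 7.70 in old KO; its difference of -1.09 had an adjusted p of 0.173. The median over the 10 genes was -0.64.

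Both KO calls rested on single arrays. Neither stood without replicate 3 of old KO saline, where Sln differed by -0.92, nor without replicate 2 or 3 of young KO saline, which carried the skeletal muscle RNA. Against the single young KO array of set 1 without it, Myl4 differed by -0.58 and Sln by -0.91, Nppa by -1.91, and Myh6, Actc1 and Tnnt2 by 0.45, -0.03 and -0.05; no gene passed the test, in which that lone array is assumed to vary like the other groups. In the same comparison 8 of 12 fast skeletal and 4 of 5 squamous genes fell. Sln and Actc1 can be expressed in skeletal muscle too, and the part of that tissue in their values was not tested. The differences between the KO and WT age effects were past the test for none of the 10 genes by limma (5.69% of all genes, either direction; 1 of 10 had an unadjusted p under 0.05): that of Tnnt2 was 0.95 (95% interval 0.21 to 1.68, adjusted p = 0.119) and that of Sln 0.05 (interval -1.11 to 1.22). These contrasts cross the sets, since each genotype's ages were compared within its own set.

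**Figure D3:**
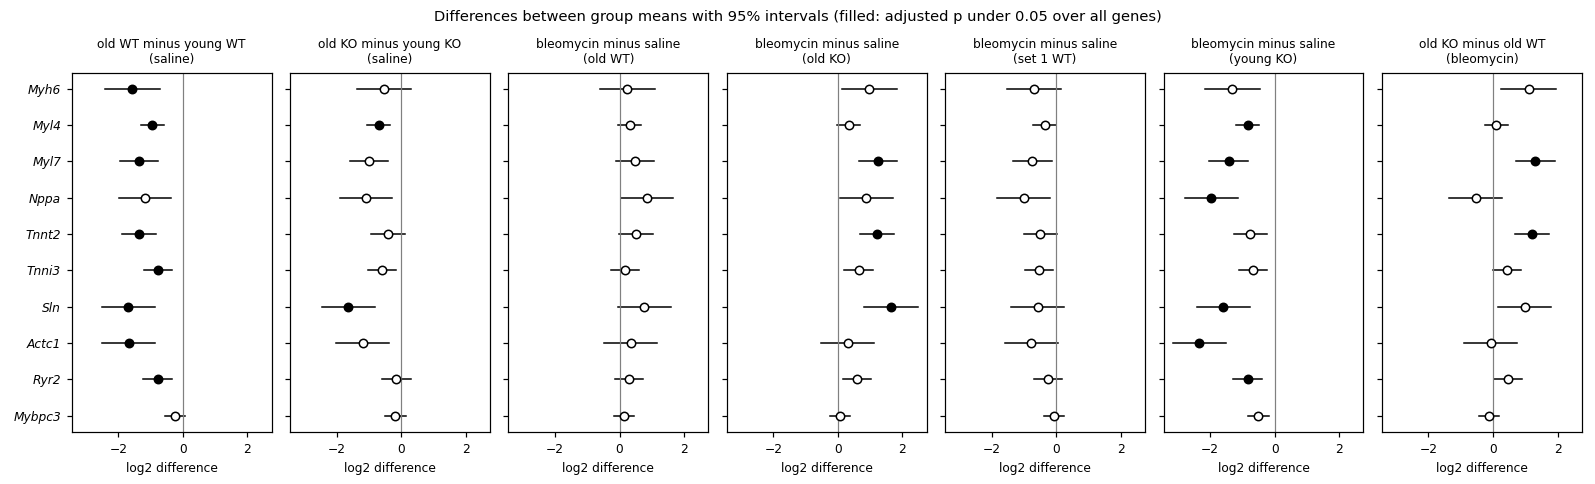
Differences between group means (x axis, log2; points) with 95% intervals (bars) for each cardiac gene (y axis) in 7 comparisons; filled points have an adjusted p under 0.05. In old minus young WT 8 points are filled, all left of 0, in old KO bleomycin minus saline 3, all right of 0, and in young KO bleomycin minus saline 6, all left of 0.

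After bleomycin 3 of the 10 genes, Tnnt2, Myl7 and Sln, rose in old KO lungs against old KO saline (7.32% of all genes were called higher), and bleomycin arrays lay above every saline array for 7 (12.7% of all genes). The median difference was 0.76, that of all genes -0.01. Tnnt2 read 9.29, 9.49 and 8.73 under saline and 10.41, 10.44 and 10.32 under bleomycin. The injured arrays were within 0.12 of each other, close to the highest set 1 WT saline array (10.46), and the rise was 1.22 (SE 0.25, adjusted p = 0.00257 by limma), or 2.33-fold. Myl7 read 7.16, 7.24 and 6.35 against 8.22, 8.34 and 7.91 and rose by 1.24 (SE 0.29, adjusted p = 0.00693 by limma). Sln read 6.96, 6.98 and 4.82 against 7.95, 7.76 and 7.98 and rose by 1.64 (SE 0.40, adjusted p = 0.00887 by limma).

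The rest of the set did not pass. Tnni3 (0.64, adjusted p = 0.0528 by limma), Ryr2 (0.60, adjusted p = 0.0739), Nppa (0.88, adjusted p = 0.156) and Myl4 (0.33, adjusted p = 0.227) had no overlap between the groups. Myh6 read 6.88, 8.18 and 6.96 under saline and 8.41, 8.47 and 8.04 under bleomycin. Replicate 2 under saline overlapped the injured arrays and its difference of 0.97 had an adjusted p of 0.135. Actc1 read 8.29, 8.96 and 6.76 under saline and 8.27, 8.52 and 8.14 under bleomycin, a difference of 0.31, and Mybpc3 differed by 0.07.

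Of the 3 calls, 2 depended on the arrays and the fit. Replicate 3 of old KO saline was the array least like its group and lowest in the mean of the lung markers. Without it, Tnnt2 alone was called and Sln differed by 0.93 and Myl7 by 0.95. Without replicate 2, 6 genes were called. Array weights and the fit of only the 2 groups each left 1 call as well, Tnnt2. Of 22 sarcomere genes 5 rose, among them Tmod1 (1.05, adjusted p = 0.00224 by limma) and Nebl, a nebulin of heart muscle (0.77, adjusted p = 0.00177 by limma), as did 2 of 11 calcium genes, with Pln the one of the larger change (1.70, adjusted p = 2.93e-05 by limma), and 3 of 15 energy genes. Of the channel and junction genes 1 fell, Gja5, a connexin of the atrium (-0.54, adjusted p = 0.0369 by limma), and of the transcription factors 1 fell, Tbx3 (-0.49, adjusted p = 0.0373 by limma), and 1 rose, Mef2a (0.51, adjusted p = 0.0488 by limma). No ventricular, fast skeletal, squamous or smooth muscle gene was called by limma (at an unadjusted p under 0.05, 1 of 5 ventricular genes and 0 of the others), and the smooth muscle mean was 7.46 to 8.35 under saline and 7.94 to 8.06 under bleomycin.

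In old WT lungs no cardiac gene was called after bleomycin by limma (1.01% of all genes were called, in either direction; 1 of 10 had an unadjusted p under 0.05), although all 10 differences were above 0, with a median of 0.33. The arrays lay above all saline arrays for 5 genes, where 12% of all genes did. Nppa read 8.25, 8.20 and 8.26 under saline and 9.32, 8.89 and 9.06 under bleomycin, with a difference of 0.85 (95% interval 0.04 to 1.67, adjusted p = 0.415 by limma). Tnnt2 read 8.65 to 8.71 against 9.06 to 9.32 (0.51, interval -0.01 to 1.03). Myh6 stayed at 7.16 to 7.28 after injury, inside its saline range of 6.81 to 7.24 but for 1 array. With only the 2 groups in the fit Nppa was called (adjusted p = 0.0306 by limma). Myzap was the single sarcomere gene of 22 that rose (0.79, adjusted p = 0.0221 by limma), and 2 of 8 smooth muscle genes fell, Acta2 by 0.99 (adjusted p = 0.0453 by limma). The difference between the old KO and old WT responses passed the test for none of the 10 genes (limma; 1.39% of all genes, either direction; 0 of 10 with an unadjusted p under 0.05), at 0.71 for Tnnt2 (interval -0.03 to 1.45) and 0.76 for Myl7 (interval -0.09 to 1.60).

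The set 1 WT mice pointed the other way. None of the 10 genes was called after bleomycin (limma; 0.721% of all genes, either direction; 4 of 10 with an unadjusted p under 0.05), and all 10 differences were below 0, with a median of -0.56. Nppa read 10.05, 8.87 and 8.99 under saline and 7.22, 9.27 and 8.38 under bleomycin. Its injured arrays spread over 2 units and overlapped the controls, with a difference of -1.01 (adjusted p = 0.342). Myl7 read 8.32, 8.05 and 7.29 against 6.91, 7.54 and 7.00 (-0.74, adjusted p = 0.345). The old KO response exceeded that of set 1 WT for 4 genes (2.62% of all genes were called higher): Sln by 2.22 (SE 0.57, adjusted p = 0.0244 by limma), Myl7 by 1.98 (SE 0.41, adjusted p = 0.0066 by limma), Tnnt2 by 1.71 (SE 0.36, adjusted p = 0.00702 by limma) and Tnni3 by 1.19 (SE 0.30, adjusted p = 0.0243 by limma). All 4 groups of this comparison lie in set 1. Leaving out one array at a time gave 2 to 7 calls, 2 without replicate 1 of either WT group and 7 without replicate 2 of old KO saline or of WT bleomycin.

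In young KO lungs the arrays labelled bleomycin had less cardiac RNA than those labelled saline, and here other tissues fell as well. Of the 10 genes 6 fell (2.22% of all genes were called lower), and the injured arrays lay below every saline array for all 10 (11% of all genes). Actc1 read 10.06, 9.93 and 10.08 under saline and 7.58, 7.72 and 7.75 under bleomycin, which left 0.197 of the control level (-2.34, SE 0.40, adjusted p = 0.000467 by limma). Nppa read 8.18, 8.88 and 8.89 against 6.92, 6.23 and 6.91 and fell by 1.96 (SE 0.40, adjusted p = 0.00263 by limma). These were the lowest Nppa values of the series.

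Sln read 8.24, 8.11 and 8.31 under saline and 6.74, 6.03 and 7.13 under bleomycin and fell by 1.59 (adjusted p = 0.017 by limma). Myl7 read 8.25, 7.67 and 7.56 against 6.36, 6.20 and 6.62 and fell by 1.43 (adjusted p = 0.00273 by limma). Myl4 and Ryr2 fell by 0.84 each (adjusted p = 0.00277 and 0.0206 by limma). Myh6 (-1.31, adjusted p = 0.0686), Tnnt2 (-0.75, adjusted p = 0.101), Tnni3 (-0.67, adjusted p = 0.0734) and Mybpc3 (-0.51, adjusted p = 0.0533) did not pass.

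All 3 control arrays of this comparison carried skeletal muscle and squamous RNA, and 2 of them had Zmpste24 near the WT level. Of 12 fast skeletal genes 10 fell, with Acta1 at a difference of -4.71 and Ckm, muscle creatine kinase, at -2.37 and a list mean of 7.48 to 7.56 in saline and 5.45 to 5.68 in bleomycin arrays. Of 5 squamous genes 4 fell (list mean 8.82 to 8.91 against 4.78 to 4.98), and 4 of 8 smooth muscle genes (8.60 to 8.79 against 7.80 to 7.92), with Myh11, the smooth muscle heavy chain, at -1.13. Against the one young KO saline array without skeletal RNA, which is in set 1, Nppa differed by -2.89 (adjusted p = 0.00712 by limma, with that lone array assumed to vary like the others), while Myl7 differed by -1.33, Sln by -0.53, Actc1 by -0.35, Tnnt2 by -0.05 and Myh6 by 0.18, none of them past the test. Leaving out the arrays whose Zmpste24 was near WT left a single control array, replicate 1 of set 2; with that lone array assumed to vary like the other groups, 2 genes were called, Actc1 and Myl7. What part the other tissues had in these values was not tested beyond these.

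Injured old lungs of both genotypes were compared across the sets. Of the cardiac genes, 2 were higher in old KO than in old WT after bleomycin (4.98% of all genes were called higher): Tnnt2, at 10.32 to 10.44 against 9.06 to 9.32 (1.2, SE 0.25, adjusted p = 0.00186 by limma), and Myl7, at 7.91 to 8.34 against 6.57 to 7.28 (1.31, SE 0.29, adjusted p = 0.0028 by limma). KO arrays lay above all WT arrays for 6 genes (14.4% of all genes). Nppa was the exception in the other direction, at 8.35 to 8.70 in KO and 8.89 to 9.32 in WT, with a difference of -0.53 that did not pass the test (adjusted p = 0.41). Actc1 overlapped (8.14 to 8.52 against 8.27 to 8.56). Genotype, set and an age of 16 against 82 weeks cannot be told apart here; with the young KO saline arrays of both sets tying the sets together, Tnnt2 differed by 1.53 (adjusted p = 0.0155 by limma) and Myl7 by 1.22 (adjusted p = 0.105).

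Without injury, none of the 10 genes was called between young KO and young WT saline arrays of set 2 (limma; 2.88% of all genes, either direction; 0 of 10 with an unadjusted p under 0.05), and the median difference was 0. Of the 3 arrays labelled KO here, 2 had Zmpste24 near the WT level (7.60 and 7.93), and the single array left without them gave 0 calls. Tnnt2 differed by -0.12 (95% interval -0.64 to 0.40) and Actc1 by 0.32 (interval -0.50 to 1.15). Acta1 was 4.49 higher in these arrays labelled KO, and the part of skeletal muscle RNA in the cardiac values was not tested. Nppa was lower in every KO array, at 8.18 to 8.89 against 9.01 to 10.05, with a difference of -0.75 (interval -1.57 to 0.06, adjusted p = 0.542 by limma). Between old KO and set 1 WT saline arrays no gene was called either (limma; 0.00902% of all genes, either direction), but 8 of 10 had an unadjusted p under 0.05 and KO arrays lay below all WT arrays for 7 (4.93% of all genes), Sln by -1.74 (adjusted p = 0.175), Nppa by -1.63 (adjusted p = 0.219) and Actc1 by -1.54 (adjusted p = 0.228). Leaving out replicate 2 of old KO saline gave 4 calls, but the share of all genes called in that fit is not given here.

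Arrays of one group differed in several of these genes more than in most genes. Pooled over the groups, the SD between arrays was 0.57 for Myh6 and 0.55 for Nppa, Sln and Actc1, above 99% of all genes, and 0.39 for Myl7, while the median of all genes was 0.21. Tnnt2 had 0.34, Tnni3 and Ryr2 0.28, Myl4 0.21 and Mybpc3 0.18. The spread was not even across groups. The median SD of the 10 genes was 0.49 in young WT saline, against 0.14 for all genes. In both set 1 WT groups it was 0.43, against 0.16. Young WT saline and set 1 WT saline hold the arrays matched above, so their spreads may not be independent. In old KO saline the median SD was 0.40 (0.30 for all genes), with Sln at 1.24 and Actc1 at 1.13. In young KO saline of set 1 it was 0.35 (0.16), with Actc1 at 1.00. The median SD was 0.15 in old WT saline (0.13 for all genes) and 0.12 in old KO bleomycin (0.13). In the young KO saline arrays of set 2 it was 0.14 (0.13). In old WT saline Nppa differed by no more than 0.06 and Tnnt2 likewise.

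**Figure D4:**
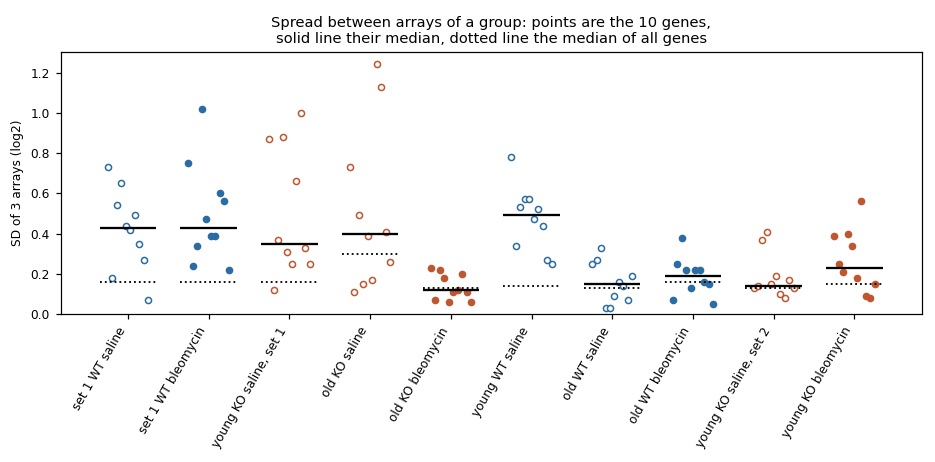
SD between the 3 arrays of each group (y axis, log2) for the 10 cardiac genes (points), with their median (solid line) and the median of all genes (dotted line); blue WT, orange KO, open saline, filled bleomycin. The solid line is well above the dotted one in young WT saline (0.49 against 0.14) and level with it in old KO bleomycin (0.12 against 0.13).

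Most of these genes varied together between arrays of a group. After the group means were subtracted, the 45 pairs of cardiac genes correlated over 30 arrays with a median r of 0.51 (-0.03 to 0.86). The points share their arrays and the scaling of each array. The matched arrays of set 1 WT saline and young WT saline all enter these correlations, so the 30 points may not be independent. Tnnt2 followed the others closest, with r 0.98 to the mean of the other 9 (0.99 in set 1 and 0.98 in set 2), then Myh6 with 0.84, Ryr2 with 0.80 and Tnni3 with 0.78. Nppa (0.39) and Mybpc3 (0.37), the gene of the lowest mean signal, followed least. Nppa parted from the rest among the young KO saline arrays of set 1, where it read 9.58 in the array with the lowest Myh6 (6.89) and 7.83 in the array with the highest (8.52). In set 2 its r was 0.68, in set 1 it was 0.29.

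**Figure D5:**
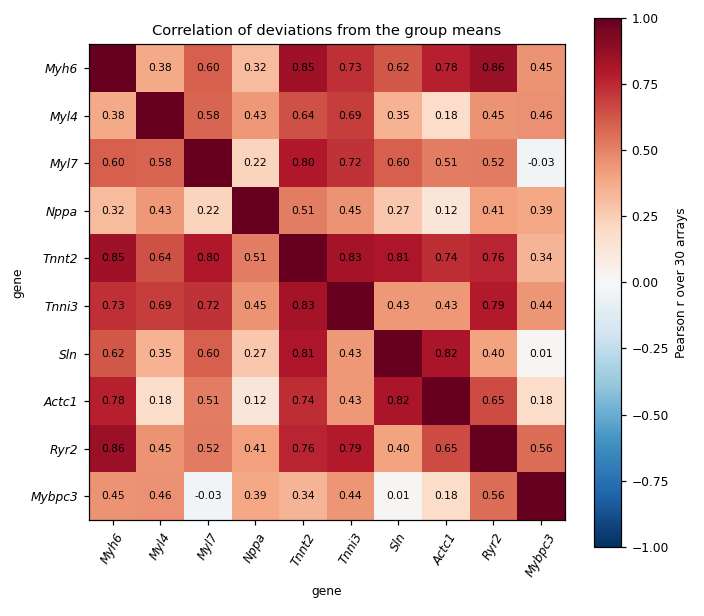
Pearson correlation (colour and number) between each pair of cardiac genes (both axes) of their deviations from the group means, over 30 arrays. The median of the 45 pairs is 0.51; the rows of Nppa and Mybpc3 are the palest and that of Tnnt2 among the darkest.

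The same deviations set the cardiac genes beside other muscle programs. Their mean correlated with that of the other sarcomere genes at r 0.86, with energy metabolism at 0.84 and with calcium handling at 0.73. It correlated with smooth muscle genes at 0.42, with fast skeletal genes at 0.27, with ventricular genes at 0.13 and with lung genes at -0.19. Each list has its own number of genes and its own levels, and these values are descriptive. The heart muscle lists also hold genes that were high in the arrays with skeletal muscle RNA. Trdn of the calcium list read 6.39 to 6.75 in those arrays and 4.39 to 5.21 elsewhere. Only young KO saline of set 1 mixed arrays with and without that RNA, so the r of the fast skeletal genes is not comparable with the others.

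Outside the set, the genes whose level over the 30 arrays was most like the mean of the 10 were Txlnb (r 0.89), Csrp3 (0.89), Myoz2 (0.87), Mb (0.87), Mybphl (0.86), Casq2 (0.85), Actn2 (0.83), Dennd3 (0.83), Kcnj3 (0.82) and Ckmt2 (0.81). Csrp3, Myoz2 and Actn2 are Z-disc proteins, Mb is myoglobin, Ckmt2 is a mitochondrial creatine kinase and Kcnj3 encodes a channel of the atrial potassium current that acetylcholine opens. All 10 were lower in old than in young WT saline arrays past the test, from -1.69 for Myoz2 (adjusted p = 8.05e-05 by limma) to -0.65 for Dennd3 (adjusted p = 0.00633 by limma); since they were picked for likeness over arrays that include these, that count is a description. Of the 10, 3 rose in old KO lungs after bleomycin, Txlnb, Myoz2 and Mybphl (0.65, 1.16 and 0.52), and 7 did not pass, from 0.13 for Ckmt2 to 0.82 for Actn2.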

How the data were processed

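Lung RNA was hybridised to 30 arrays, 3 per group, which limits the precision. The deposited values are log2 levels of 41345 probe sets, with array medians of 5.95 to 6.19. No source used here states whether or how the arrays had been scaled to each other. The submitters' notes name limma. The values were used as deposited. Of the probe sets, 23521 are annotated to 1 gene, 1820 to several and 16004 to none, and each of 22180 genes was read from its brightest one. A model with a mean per group was fitted to every array with limma 3.58.1 in R 4.3.3, with moderated tests, Benjamini-Hochberg adjustment over all genes and a threshold of 0.05, and was tested on simulated data. Named genes were the 10 members, the 10 genes most correlated with their mean, up to 6 genes of each list with the highest mean level, the ventricular and chamber markers (1 is not reported here) and Zmpste24. The members and lists were chosen with earlier results of these data known. Alternatives were quantile normalisation, median centring, leaving out dim genes (mean under 5.2), averaged probe sets, a trended and robust variance, array weights, fits of only the compared groups, blocks for replicate number and set, and each array left out. Figures used Python 3.11.15 and matplotlib 3.10.9.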

Additional observations from a re-analysis of the deposited data

Results flagged for a closer look

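Of the 10 cardiac genes, 4 responded differently to bleomycin in old KO and in set 1 WT lungs by a test of the difference itself (limma, adjusted over all genes). The KO response minus the WT response was 1.98 for Myl7 (adjusted p = 0.0066), 1.71 for Tnnt2 (adjusted p = 0.00702), 2.22 for Sln (adjusted p = 0.0244) and 1.19 for Tnni3 (adjusted p = 0.0243). In the KO the responses of Myl7, Tnnt2, Sln and Tnni3 were 1.24, 1.22, 1.64 and 0.64, and in set 1 WT they were -0.74, -0.49, -0.58 and -0.55. The age of the WT group is ambiguous in the labels.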

How the results depend on the processing

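Leaving out single arrays gave 3 to 8 calls for age in WT, 0 to 4 for age in KO, 1 to 6 for bleomycin in old KO, 4 to 6 for bleomycin in young KO, 0 to 4 for old KO against set 1 WT saline and 2 to 7 for the difference between the old KO and set 1 WT responses. For age in KO, quantile normalisation gave 1 call, and array weights, the fit of only the groups compared, leaving out arrays with Zmpste24 near WT and, added after seeing the data, leaving out those with skeletal muscle RNA gave 0, while the set as a random block, with the young KO saline arrays of both sets as 1 group, gave 4. Array weights gave 5 calls for injured old KO against WT, 1 for bleomycin in old KO and 10 for bleomycin in young KO; the fit of only the groups compared gave 6, 1 and 10, with 1 for bleomycin in old WT and 1 for the difference of responses. Injured old KO against WT gave 1 call with set as a term. For bleomycin in young KO there were 2 calls without arrays whose Zmpste24 was near WT and 1 against the array without skeletal RNA, where Ryr2 reversed to 0.02. The cause was not tested. With the replicate number as a replicate block the counts were 8 for age in WT and 2 for age in KO, equal to those without it, as in every other comparison; the numbers do not pair the samples (135 same-number correlations, median -0.01). Of 2120 refits of single genes, 435 were of called genes, of which 62 lost the call and 1 reversed; of the 1685 others 49 gained a call and 69 changed sign. Shares of all genes are given for the main fit only, so the counts of calls in these refits have no such background. With 3 arrays per group, how small a difference of Myh6, Nppa, Sln and Actc1 could be detected was not tested.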
